A study of Arabidopsis thaliana with 6 samples.

Results

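The JAZ genes encode repressors of the response to jasmonate, a plant hormone of wounding and defence. JAZ1 to JAZ10 were taken by name, as 10 of the 27444 protein-coding genes examined. The rule uses no measured value, but the family was picked with earlier results of these data known. The libraries were made by chromatin immunoprecipitation with sequencing (ChIP-seq) from whole Arabidopsis thaliana seedlings, 9 days old and kept in continuous white light. They fall into 3 immunoprecipitated (IP) and 3 input libraries, and both groups carry the genotype WDR5A-HA_pkl in the descriptions, that is, HA-tagged WDR5A together with pkl. The antibody was directed against HA. The library titles differ, with PKL_WT for IP and PKL_jaw-5D for input, so that bait and genotype rest on the descriptions and the genotype label. The promoter of the tagged gene, the number of lines and the pkl allele are not stated in the labels. WDR5A is a WD40-repeat subunit of complexes that methylate histone H3 at lysine 4, a mark of active genes, and PKL (PICKLE) is a chromatin remodeller of the CHD3 type.

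A JAZ protein binds MYC2 and related bHLH transcription factors through its C-terminal Jas motif and holds the TOPLESS corepressor at their target genes, in most members through the adaptor NINJA, which binds the ZIM (TIFY) domain. When jasmonoyl-isoleucine is present, the F-box protein COI1 takes hold of the Jas motif, the JAZ protein is degraded and the MYC factors are released. Many JAZ genes are themselves MYC targets and are transcribed within minutes of a jasmonate pulse, which closes a negative feedback loop. By sequence, JAZ1, JAZ2, JAZ5 and JAZ6 are close relatives, as are JAZ3, JAZ4 and JAZ9. JAZ7 and JAZ8 are short proteins, and JAZ10 stands apart.

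The IP lists for replicates 1, 2 and 3 held 10864, 10408 and 10826 peak summits, each a position of 1 bp with a strength read as −log10 q. The median strength of a list lay between 6.48 and 7.08 and the lowest between 1.30 and 1.33. No position with the same strength occurred in any pair of lists, although 59 to 73 positions were shared. The input libraries enter no count, so no groups were compared and no test was made. The values describe where tagged WDR5A was called and how far the 3 lists agree within their spread. The number of reads is unknown, strength grows with it, and an empty window means only that the peak caller listed nothing there. A gene was counted when each list had a summit inside it or no more than 500 bp beyond either edge, a stretch referred to as its window.

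Of the 10 JAZ genes, 6 had a summit in all 3 lists: JAZ1, JAZ3, JAZ5, JAZ6, JAZ9 and JAZ10. Across all protein-coding genes that share was 24.8%. The remaining 4, JAZ2, JAZ4, JAZ7 and JAZ8, had no summit in their windows in any list, where 56.4% of protein-coding genes had none. None of JAZ1 to JAZ10 was in between, with a summit in 1 or 2 lists, as 10.1% and 8.7% of protein-coding genes were. Each list taken alone therefore reached the same 6 genes, through 11, 11 and 14 summits in replicates 1, 2 and 3. At JAZ10 those summits did not all mark 1 place. JAZ11, JAZ12 and JAZ13 are counted below with the other TIFY genes, and JAZ13 had a summit in 2 lists. Summits no weaker than their list's median lay in the windows of 5 JAZ genes in all 3 lists, with JAZ10 lost, against 11.7% of protein-coding genes.

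Strength differed widely among the 6, and JAZ3 and JAZ6 had the highest means. JAZ3 (AT3G17860), the member first found through the jasmonate-insensitive mutant jai3, had strongest summits of 31.9, 32.1 and 34.6 in replicates 1, 2 and 3, a mean of 32.9 ± 1.50 (SD, n = 3). These values were close together and ranked at percentiles 95.5 to 97.2 of all summits in their lists. JAZ6 (AT1G72450), a repressor of the JAZ1 clade, reached 37.1, 36.1 and 23.6, a mean of 32.3 ± 7.54 (SD, n = 3). It was above JAZ3 in replicates 1 and 2 and below it in replicate 3, so that the order of these 2 genes is within the spread between lists.

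JAZ5 (AT1G17380), the closest relative of JAZ6, reached 30.6, 19.0 and 20.5, a mean of 23.4 ± 6.31 (SD, n = 3). JAZ9 (AT1G70700), of the JAZ3 clade, reached 18.5, 13.5 and 25.4, a mean of 19.1 ± 5.95 (SD, n = 3). The values of JAZ5 overlapped those of JAZ6 above it and of JAZ9 below it. In replicate 3 the order was JAZ3, JAZ9, JAZ6 and JAZ5, with JAZ9 above JAZ6, so the order among JAZ6, JAZ5 and JAZ9 differs between lists. JAZ1 (AT1G19180), an early-induced repressor that binds COI1 in the presence of the hormone, reached 7.93, 9.84 and 9.25, a mean of 9.01 ± 0.981 (SD, n = 3). Each was below every strongest summit of JAZ9 in windows of 500 bp, an order that did not hold with 1000 bp. JAZ10 (AT5G13220), whose splice forms include ones that resist degradation, was lowest at 2.25, 4.71 and 2.65, a mean of 3.20 ± 1.32 (SD, n = 3), with no overlap with JAZ1.

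**Figure D1:**
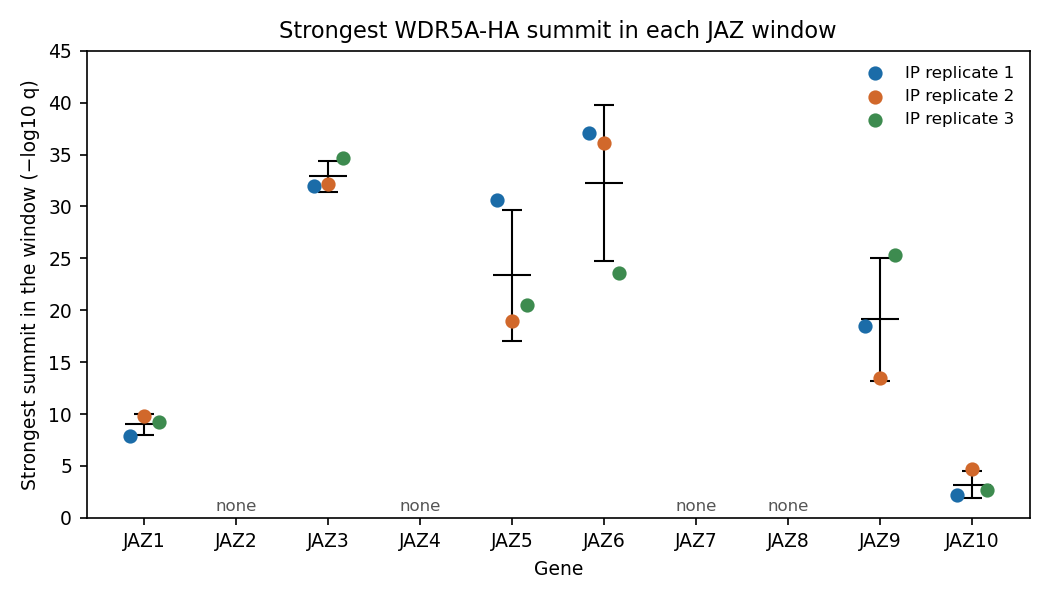
Strongest summit in the window of each JAZ gene (gene plus 500 bp), as −log10 q on a linear axis. Points are the 3 IP lists, horizontal bars the mean and whiskers the SD (n = 3), and "none" marks windows with no summit in any list. JAZ3 and JAZ6 average 32.9 and 32.3, JAZ1 9.01 and JAZ10 3.20.

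Among the 6801 protein-coding genes with a summit in all 3 lists, mean strength put JAZ3 at percentile 95.7, JAZ6 at 95.5, JAZ5 at 90.5 and JAZ9 at 85.8. JAZ1 was near the middle, at percentile 50.9, and JAZ10 near the bottom, at 2.12. The median of the 6 means was 21.2, and that of the 6801 genes was 8.90. The protein-coding genes whose strengths over the 3 lists were most like those of JAZ3 were AT1G27290, AT2G45670 and ROPGEF1. Their distances from JAZ3 were 0.0276, 0.0293 and 0.0353 on the log10 scale (Euclidean, over 3 lists).

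**Figure D2:**
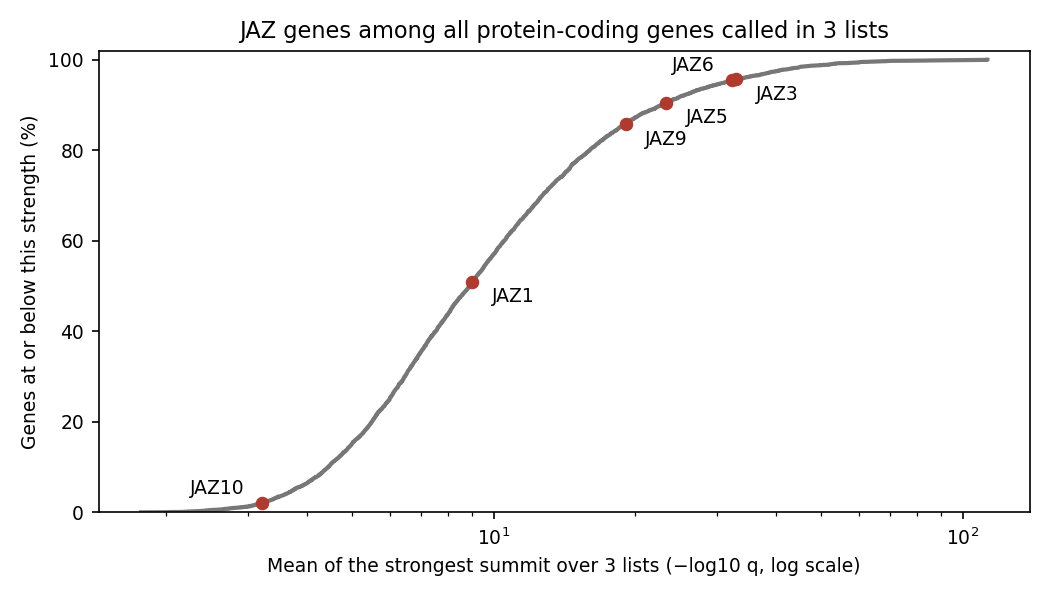
Cumulative share of the 6801 protein-coding genes called in all 3 lists (vertical axis, %) against the mean of their strongest summit (horizontal axis, −log10 q, log scale), as a grey line. Red points mark the 6 JAZ genes. JAZ10 sits at percentile 2.12, JAZ1 at 50.9, and JAZ9, JAZ5, JAZ6 and JAZ3 between 85.8 and 95.7.

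The lists marked the same places in 5 of the 6 genes. Summits of different lists within 250 bp of each other were linked, and a linked region of all 3 lists lay in the windows of JAZ1, JAZ3, JAZ5, JAZ6 and JAZ9, that is 5 of 10, where 22.9% of protein-coding genes held one. JAZ5, JAZ6 and JAZ9 held 2 or more such regions, 3 of 10 JAZ genes, against 3.29% of protein-coding genes. Within the 9 regions of the JAZ windows the summits spread over 16 to 126 bp. The median spread over all 6684 linked regions was 57 bp. Positions below are 1-based and in the TAIR10 build named in the submitters' notes. The gene table used for names and windows carries no strand, so a gene has a low-coordinate and a high-coordinate edge, and starts and ends cannot be told apart.

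JAZ3 had a single region in its window, outside the gene. Its summits stood at positions 6119554, 6119572 and 6119542 of chromosome 3 in replicates 1, 2 and 3, between 135 and 165 bp beyond the low-coordinate edge. No other protein-coding gene had this region in its window. The gene body of JAZ3 and its other flank carried no summit in any list.

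JAZ5 and JAZ6 both had 1 region of all 3 lists at each edge, the stronger one at the high-coordinate edge. JAZ9 also had a region near each edge, with the high-edge one stronger in every list. Without strand, the high-coordinate edge may be the start of some of these genes and the end of others. At JAZ5 the high-edge summits lay 389 to 405 bp beyond the gene, at positions 5957916, 5957906 and 5957900 of chromosome 1, with strengths of 30.6, 19.0 and 20.5. The low-edge summits of JAZ5 reached 18.7, 12.8 and 15.2, at positions 5955179, 5955115 and 5955101. In each list the high edge was the stronger of the 2. The median low-edge position lay inside UBP1B (AT1G17370), the adjacent gene for an oligouridylate-binding protein, and 40 bp outside JAZ5. In replicate 1 the low-edge summit lay inside JAZ5, 24 bp from the edge. This region therefore cannot be assigned to 1 of the 2 genes.

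At JAZ6 the high-edge summits stood at positions 27276872, 27276832 and 27276902 of chromosome 1, 270 to 340 bp beyond the gene, with 37.1, 36.1 and 23.6. They lay inside AT1G09307, annotated as a long non-coding RNA gene, and in the window of no other protein-coding gene. The low-edge summits reached 24.2, 21.0 and 16.3, and again the high edge was stronger in every list. The low-edge region lay inside the neighbouring gene EDA25 (AT1G72440) and 119 bp outside JAZ6. As at JAZ5, it cannot be assigned to a single gene. JAZ6 was not counted when each summit was given to 1 gene of any class. Weak summits inside the JAZ6 body, of 4.19 in replicate 1 and of 6.19 and 5.44 in replicate 3, were not called in replicate 2.

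JAZ9 held 3 regions, the highest number in the family. The strongest lay 358 to 387 bp beyond the high-coordinate edge, at positions 26657708, 26657726 and 26657737 of chromosome 1, with 18.5, 13.5 and 25.4. A region just inside the low-coordinate edge, 100 to 129 bp from it, had strengths of 9.66, 12.1 and 4.34. The region in the gene body, at 26655668, 26655561 and 26655673, had 12.7, 5.18 and 12.7. The inner regions overlapped in strength (8.70 ± 3.96 and 10.2 ± 4.35, SD, n = 3), and neither lay in the window of another protein-coding gene. Replicates 1 and 3 ranked the gene-body region above the low-edge region, and replicate 2 ranked them the other way.

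**Figure D3:**
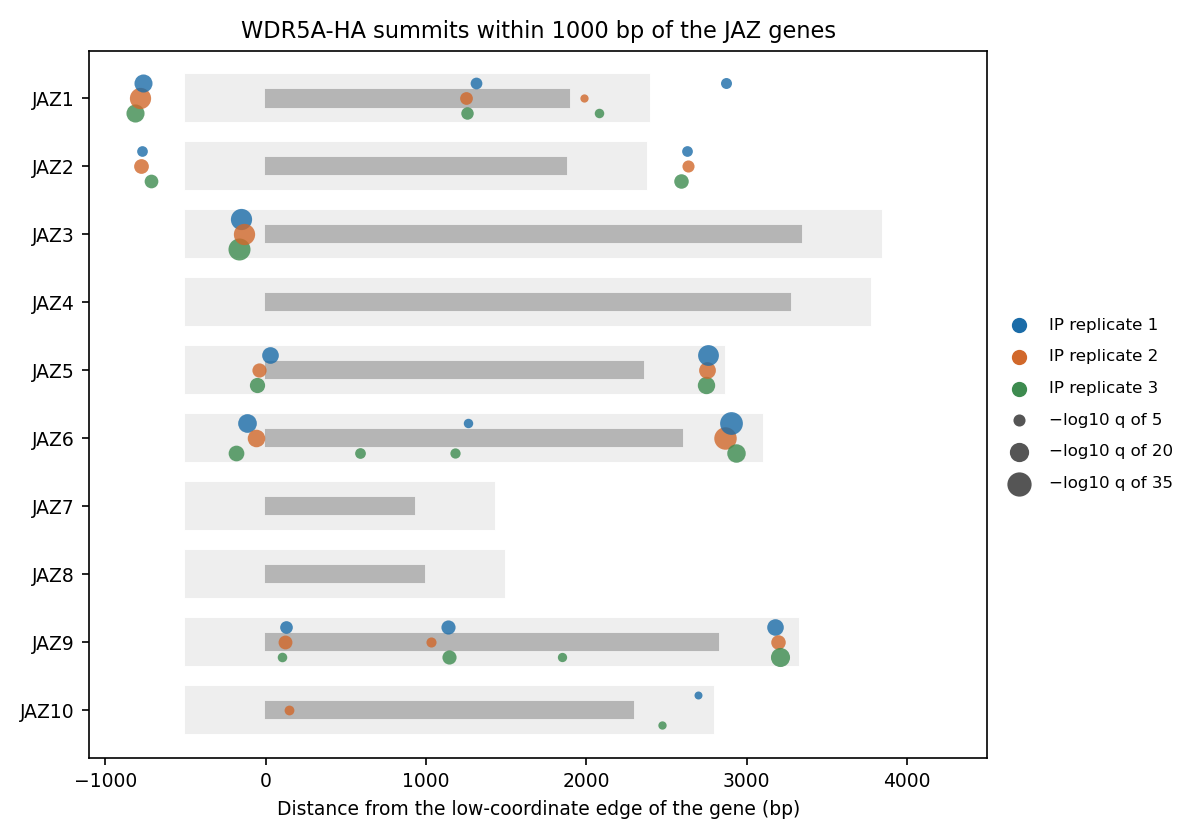
Summits within 1000 bp of each JAZ gene, by distance from the low-coordinate edge of the gene (horizontal axis, bp). Dark bars are gene bodies, pale bars the windows of 500 bp to either side, colours the 3 IP lists (replicate 1 uppermost) and point areas grow with −log10 q. JAZ3, JAZ5, JAZ6 and JAZ9 carry their strongest summits outside the gene body, JAZ1 and JAZ2 have summits of all 3 lists just beyond the window, and JAZ4, JAZ7 and JAZ8 have none.

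JAZ1 was counted through a region in its body, at positions 6623089, 6623027 and 6623034 of chromosome 1, about 0.66 to 0.69 of the way from the low-coordinate to the high-coordinate edge. A stronger region lay just outside the window. Its summits stood 765 to 814 bp beyond the low-coordinate edge, at positions 6621012, 6620994 and 6620963, and reached 22.4, 32.0 and 22.5, a mean of 25.6 ± 5.53 (SD, n = 3). Each was above every summit of the JAZ1 window. This region lay inside AT1G05473, a long non-coding RNA gene, and in the window of no protein-coding gene. With windows of 1000 bp the JAZ1 mean therefore rose from 9.01 to 25.6. That is above the means of JAZ5 (23.4) and JAZ9 (19.1) at the same width, though the values of the lists overlapped.

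JAZ10 was counted without a place shared by all 3 lists. In replicate 2 the summit was at position 4218932 of chromosome 5, inside the gene and 146 bp from the low-coordinate edge. The summits of replicates 1 and 3 lay beyond the opposite edge, at positions 4221484 and 4221255, 407 and 178 bp outside the gene. They were 229 bp apart and so were linked as a region of 2 lists. All 3 were weak, at percentiles 4.87, 32.2 and 9.23 of their lists. The mean of JAZ10 thus describes no single site, and with windows of 250 bp, or with summits of at least 5 in strength, JAZ10 was no longer counted.

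Of the 4 genes without a summit, JAZ2 had neighbouring regions and the other 3 did not. JAZ2 (AT1G74950), the closest relative of JAZ1, is known for its role in guard cells. Its regions lay just outside the window on each side. The low-side summits, 715 to 775 bp from the gene, had strengths of 6.13, 14.1 and 11.8. Those on the high side, 716 to 765 bp away, had 6.20, 8.62 and 13.6. The values of the 2 sides overlapped. The low-side region also lay 318 bp outside AT1G74940, whose window holds it, while the high-side region was in no coding window. With windows of 800 or 1000 bp, JAZ2 was counted too and the family stood at 7 of 10, while the share of all protein-coding genes was 27.7% or 29.3%.

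JAZ4 (AT1G48500), of the JAZ3 clade, was 9683, 9680 and 9727 bp from its nearest summit in replicates 1, 2 and 3. JAZ7 (AT2G34600) was 14063, 8133 and 4616 bp from the nearest, and JAZ8 (AT1G30135), which lacks the usual COI1-binding sequence and is resistant to jasmonate-triggered degradation, 8917, 5756 and 6220 bp. No summit of any list thus lay within 4 kb of these 3 genes. JAZ7 and JAZ8 are short genes with small windows, in the second length decile, in which 14.4% of protein-coding genes were counted. JAZ4 is in the eighth, in which 30.2% were. JAZ9, of the same clade and the same length decile, held 3 regions. The counted JAZ genes were in length deciles 5 to 9, in which 26.3% to 32.3% of protein-coding genes were counted. Whether gene length bears on the JAZ counts was not tested.

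By clade, JAZ1, JAZ5 and JAZ6 had at least 1 region of all 3 lists in their windows, and their relative JAZ2 had none there. JAZ2 had regions only within 1000 bp, a search width for regions that was chosen after the data were seen. At that width a region was found at 26.8% of protein-coding genes and at 6 of the 10 JAZ genes. In the JAZ3 clade JAZ3 and JAZ9 held regions and JAZ4 did not. Neither JAZ7 nor JAZ8 did. Of the 9 regions in JAZ windows 3 lay inside the gene and 6 outside (66.7%). Over all protein-coding genes, 54.6% of the 7261 pairs of a gene and a region in its window lay outside the gene. In the same comparison 7 of 9 JAZ regions (77.8%) lay within 500 bp of an edge of their gene, against 88.9%.

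Among the other genes for proteins with a TIFY domain, 3 of 9 had a summit in all 3 lists, JAZ12 (AT5G20900), PPD2 (AT4G14720) and ZIM (AT4G24470). That is 33.3%, near the 24.8% of all protein-coding genes, and the difference from the JAZ count was not tested. The 9 include JAZ11, JAZ12 and JAZ13, JAZ genes outside the JAZ1 to JAZ10 set, so they are not a set without JAZ genes. PPD2, a PEAPOD regulator of leaf growth, had strengths of 11.6, 7.68 and 11.2 inside the gene, within 49 to 66 bp of its high-coordinate edge. JAZ12 had 9.66, 3.87 and 4.53 outside the gene, and was not counted with each summit given to 1 gene. ZIM, a GATA-type zinc finger protein, had 4.71, 3.38 and 9.54. PPD1 (AT4G14713) had summits in replicates 1 and 3, at 4.19 and 3.43, and JAZ13 (AT3G22275) in replicates 1 and 2, at 4.91 and 5.03. JAZ11 (AT3G43440), TIFY8 (AT4G32570), ZML1 (AT3G21175) and ZML2 (AT1G51600) had none. By the strongest summit in the window, every value of these 9 genes was below every value of JAZ3, JAZ5, JAZ6 and JAZ9. The weaker summits of JAZ6 and JAZ9 are not part of this comparison. The mean of PPD2 (10.2) was above that of JAZ1, and the means of JAZ12 (6.02) and ZIM (5.88) were above that of JAZ10.

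Around the JAZ genes, 16 of 35 other jasmonate pathway genes had a summit in all 3 lists, 6 in 2 lists, 5 in 1 list and 8 in none. Over all protein-coding genes these shares were 24.8%, 8.70%, 10.1% and 56.4%, and for the pathway genes 45.7%, 17.1%, 14.3% and 22.9%. The median of the 16 mean strengths was 9.59. Counts were 7 of 13 for hormone synthesis, 6 of 11 for perception and transcription and 3 of 7 for catabolism. The output genes VSP1, VSP2, PDF1.2 and THI2.1 gave 0 of 4, and VSP2 had a summit in replicate 3 alone (7.73). These output genes were in length deciles 1, 2 and 4, in which 8.05%, 14.4% and 24.3% of protein-coding genes were counted. The 5 strongest pathway genes were MYC2, LOX2, ST2A, AOS and CYP94B3. MYC2, the transcription factor that JAZ proteins repress, reached 35.7, 36.4 and 38.8, above JAZ3 in every list. LOX2, a lipoxygenase of hormone synthesis, had a mean of 19.2 ± 3.28 (SD, n = 3), close to JAZ9. ST2A, a sulfotransferase that acts on hydroxyjasmonate, had 16.8 ± 6.72, AOS, the allene oxide synthase, 15.1 ± 7.09, and CYP94B3, a hydroxylase that inactivates the hormone, 13.9 ± 3.74 (SD, n = 3 each).

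**Figure D4:**
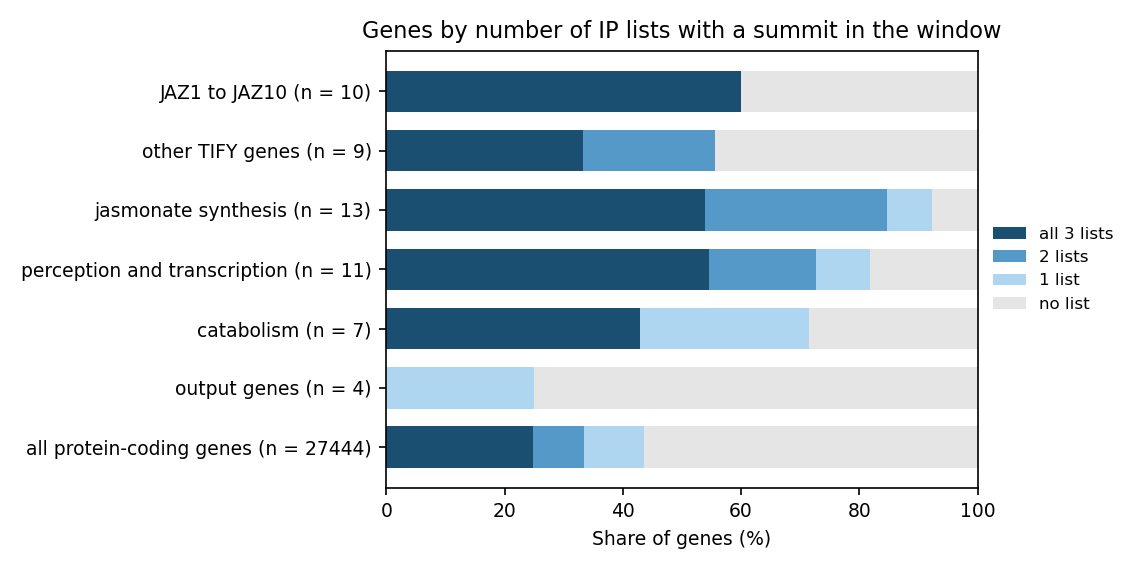
Share of genes (horizontal axis, %) by the number of IP lists (3, 2, 1 or none) that have a summit in the gene's window, for JAZ1 to JAZ10, the other TIFY genes, 4 lists of jasmonate genes and all protein-coding genes, with the number of genes in brackets. JAZ1 to JAZ10 fall into 6 with all 3 lists and 4 with none, and the output genes have no member with all 3. The other TIFY genes include JAZ11, JAZ12 and JAZ13.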

How the data were processed

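The submitters' processing notes name TAIR10 and the tools Bowtie2 2.3.3, MACS2 2.2.5, fastp and deepTools. Peak thresholds, and whether inputs served as controls, are not stated. The authors deposited 1 summit list per IP replicate, whose strength column was read as the −log10 q of the peak caller, since its minimum sits at −log10 of 0.05 (1.301). No header names the measure, and a cutoff of 0.05 on p would leave the same minimum. The reading as q, also in the figures, is therefore an assumption. Peak names carry the replicate, so calls were taken as made per sample. Depth is unknown, and no interval or detection limit was computed. Summit positions were the BED starts plus 1. Reading them without that step changed 3 of the counted genes and no JAZ gene.

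Genes came from a RefSeq table of assembly TAIR10.1 (27444 protein-coding), in which all 54 listed genes were found. None of its coordinates is printed. As a check of the match, 50.95% of summits lay within 250 bp of a coding gene edge, and at most 22.79% after shifts of 500 to 5000 bp. Python 3.11.15, numpy 2.4.6, pandas 2.3.3 and matplotlib 3.10.9 were used, and the counting was tested on simulated data. The series' design text calls the replicates biological. Means and SDs are over the 3 lists. Alternatives varied the window, the strength threshold, the lists required, the assignment of shared summits, the linking distance and the replicates. Named were all JAZ and TIFY genes, the 5 strongest pathway genes, the 3 genes most like the strongest JAZ gene and the neighbours sharing a summit. The pathway output genes were named in addition. Members and lists were chosen with earlier results of these data known. The planned comparisons of promoter motifs and protein sequences were not run, since no sequence was used here.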

Additional observations from a re-analysis of the deposited data

How the results depend on the processing

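The count of 6 JAZ genes moved by over 1.5 times only with gene bodies alone, to 2 (JAZ1 and JAZ9). It was 5 with 250 bp flanks (20.4% of all protein-coding genes) and with either strength threshold, 7 with 1000 bp (29.3%), and 6 with at least 2 lists (33.5%), with each summit given to 1 coding gene (17.7%) and without any single IP replicate. Among alternatives chosen after seeing the data, 800 bp gave 7 (27.7%), and giving each summit to 1 gene of any class gave 4 (16.7%), with JAZ6 and JAZ10 lost. The share of all protein-coding genes moved from 24.8% to 11.1% with gene bodies alone, to 11.67% with summits at or above the list median and to 15.86% with a strength of at least 5. Without 1 IP replicate it was 27.47% to 28.06%. The other TIFY genes fell from 3 to 1 with either strength threshold and reached 5 with at least 2 lists. Pathway genes fell from 16 to 7 at the list median and to 10 with a strength of at least 5. Linking within 100 or 500 bp, or only summits at or above the list median, left 5 JAZ genes with a region. The share of all protein-coding genes was not computed at these settings, so the 5 cannot be set against a background there. A search to 1000 bp, also added later, gave 6 (26.8% of all protein-coding genes). Of 29 JAZ strengths recomputed with all 3 lists kept, 9 moved by more than the SD of their lists. Cases in which a gene lost a list are not among the 29. These include JAZ3, JAZ5, JAZ6 and JAZ10 with gene bodies alone. With 250 bp flanks JAZ5, JAZ6 and JAZ9 moved to 15.6, 20.5 and 12.5, since their high-edge regions lie farther out. Ordered by the sum of all summits in the window JAZ6 (58.0) and JAZ9 (39.4) led, and JAZ3 came after JAZ5. Without IP replicate 3, JAZ6 led JAZ3. Promoter windows and motif spelling were not run. No paired analysis was possible because the counts use the IP group alone and come from no test. Unknown depth limits every absence: a gene without a summit may carry tagged WDR5A below the peak threshold.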
